A study of Mus musculus with 4 samples.

Results

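Genes of the cell division cycle and of DNA replication were compared between the dorsal and the ventral part of the tracheoesophageal anlage of the mouse. The list of 49 genes holds cyclins, cyclin-dependent kinases (CDKs) and their inhibitors, replication factors, mitotic regulators, E2F factors and *Myc* genes. A gene counted as measured when a probe set of the array carried its symbol and no other, which held for 48 of the 49 genes, among 18194 named genes in all. No probe set used here carried *Ccnb1*, so it was not analysed here. The 48 genes were put into 4 classes by textbook role, with 13 G1/S drivers, 14 replication genes, 17 G2/M genes and 4 CDK inhibitors.

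The samples came from BALB/c embryos at E9.75, when the anlage is a single foregut tube with the lung bud starting as a ventral swelling. The tube was taken between the pharynx and the end of the bud and cut by hand into dorsal and ventral parts, with 2 Affymetrix arrays for each part. The labels name no mutation or treatment, and they do not say how many embryos or litters each array stands for, although they call the arrays biological replicates. The p-values therefore reflect the spread of these arrays alone, in part pooled over genes. Each sample held epithelium, mesenchyme and neighbouring cells together. Of the epithelial markers, *Shh* was above the upper quartile in both parts and higher ventrally (log2 difference -2.66, limma adjusted p = 1.83e-10). *Sox2* was higher dorsally by 0.57 (limma adjusted p = 0.0325). *Nkx2-1* differed by -0.10 (limma adjusted p = 0.785), but its probe set read 5.03 to 5.25, below the median of every array. A difference in *Nkx2-1* could therefore have been missed.

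Entry into the cell cycle is driven by D cyclins with CDK4 and CDK6, which inactivate the RB protein and free E2F factors to switch on replication genes. The MCM2 to MCM7 proteins form the helicase that CDC6 and CDT1 load at replication origins. Cyclins A and B with CDK1 then carry the cell into mitosis, where Aurora and Polo kinases, kinesins and the spindle checkpoint divide the chromosomes. Inhibitors of the CIP/KIP family (*Cdkn1a*, *Cdkn1b*) and of the INK4 family (*Cdkn2c*, *Cdkn2d*) hold CDKs back. Cells of the early embryonic foregut divide rapidly, and many of these genes are read off through E2F sites or, for mitosis, through CCAAT boxes and the cell cycle homology region (CHR).

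The start regions of 40 of the 49 genes were in the RefSeq table of GRCm38.p6, and the 250 bases before each start were searched on both strands. *Ccnd1*, *Ccnd2*, *Ccne2*, *Myc*, *Mcm4*, *Gmnn*, *Ccna2*, *Aurkb* and *Kif20a* had no entry. *Ccnb1*, which was not analysed on the arrays, had one and is counted among the G2/M genes here. The letters were TTTGGCGC, TTTCGCGC, TTTCCCGC and TTTGCCGC for E2F, TTTGAA for the CHR and CCAAT for the CCAAT box. E2F letters stood before 4 of 12 replication genes, 3 of 9 G1/S drivers and 1 of 15 G2/M genes, and before 2.16% of all 27025 genes in the table. The CHR letters stood before 6 of 15 G2/M genes, 3 of 9 G1/S drivers and 1 of 12 replication genes, against 18.3% of all genes. CCAAT stood before 13 of 15 G2/M genes, 9 of 12 replication genes, 4 of 9 G1/S drivers and 2 of 4 inhibitors, against 37.5% of all genes. None of the 4 inhibitors had E2F or CHR letters in this window. These matches describe the letters, not binding.

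The 4 stretches shown here are those of *Mycn*, which was called higher dorsally, of *Mcm6*, which had the largest difference of the helicase genes, and of *Cdk1* and *Ccnb2* from the G2/M class. They run 5′ to 3′ along the gene in lower case, with the matched letters of both strands in capitals. In *Mycn* and *Mcm6* an E2F match of each strand overlaps in the run TTTGGCGCGAAA, and each gene holds another E2F match downstream of it.
Mycn (chr12:12941837-12942086, minus strand): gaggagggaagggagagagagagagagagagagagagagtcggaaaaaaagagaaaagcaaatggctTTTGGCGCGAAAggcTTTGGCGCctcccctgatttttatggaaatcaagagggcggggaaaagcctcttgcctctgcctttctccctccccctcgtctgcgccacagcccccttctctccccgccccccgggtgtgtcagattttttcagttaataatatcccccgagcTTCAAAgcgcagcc
Mcm6 (chr1:128359706-128359955, minus strand): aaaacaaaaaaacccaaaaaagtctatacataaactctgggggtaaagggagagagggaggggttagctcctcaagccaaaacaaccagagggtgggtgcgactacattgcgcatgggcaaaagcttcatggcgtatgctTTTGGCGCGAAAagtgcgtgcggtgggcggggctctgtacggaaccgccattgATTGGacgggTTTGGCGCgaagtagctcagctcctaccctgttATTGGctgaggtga
Cdk1 (chr10:69352913-69353162, minus strand): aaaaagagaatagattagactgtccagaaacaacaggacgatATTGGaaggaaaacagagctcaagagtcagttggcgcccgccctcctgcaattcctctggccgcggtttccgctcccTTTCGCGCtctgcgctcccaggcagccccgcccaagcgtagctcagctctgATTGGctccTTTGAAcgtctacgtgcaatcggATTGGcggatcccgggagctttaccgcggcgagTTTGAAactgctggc
Ccnb2 (chr9:70421555-70421804, minus strand): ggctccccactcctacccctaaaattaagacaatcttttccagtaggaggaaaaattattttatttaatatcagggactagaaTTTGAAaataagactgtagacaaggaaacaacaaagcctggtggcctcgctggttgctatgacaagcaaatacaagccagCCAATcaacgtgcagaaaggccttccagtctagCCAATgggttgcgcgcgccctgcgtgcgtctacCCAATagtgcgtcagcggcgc
*Mycn* has a CHR match close to the start and no CCAAT, *Mcm6* has E2F and CCAAT letters without a CHR, *Cdk1* has all 3 kinds, and *Ccnb2* has CHR and CCAAT letters without E2F.

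The deposited values are RMA values, read as log2, and each gene was represented by its probe set with the highest mean. All 48 genes exceeded the 40th percentile of every array, and 41 of them exceeded the upper quartile on each array, which describes the brightness of their probe sets and not transcript numbers. The 48 genes were tested with limma among the 13139 genes that passed the filter on low values. At an adjusted p under 0.05, 2 of them were higher dorsally and 1 was higher ventrally. Over all tested genes 4.79% were called dorsally and 4.09% ventrally, so neither count lay above its background. The genes called were *Ccnd2* and *Mycn* in the dorsal part and *Cdkn1a* in the ventral part. At an unadjusted p under 0.05 the counts were 4 and 2 of 48, where 11% and 7.98% of all tested genes passed. In tissue samples a change in the number of dividing cells and a change in RNA per cell cannot be told apart.

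**Figure D1:**
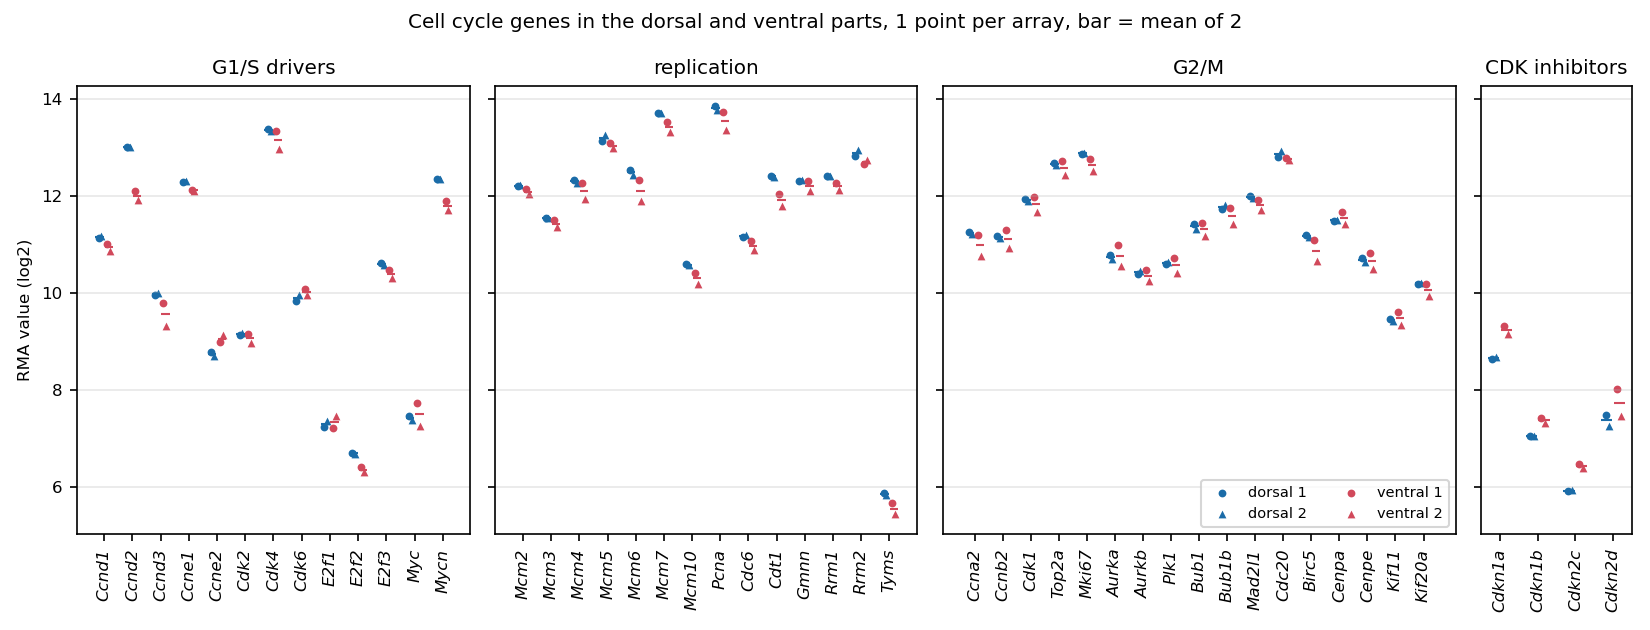
RMA values (log2, vertical axis) of the 48 measured genes in the dorsal (blue) and ventral (red) parts, with 1 point per array, circles for the arrays numbered 1 and triangles for those numbered 2, and a bar marking each part's mean. *Ccnd2* and *Mycn* lie higher dorsally and the inhibitor *Cdkn1a* higher ventrally, while for 40 of the 48 genes ventral replicate 2 is the lowest point, as it is for 59.9% of all tested genes and 79.7% of the fifth with the highest means.

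**Figure D2:**
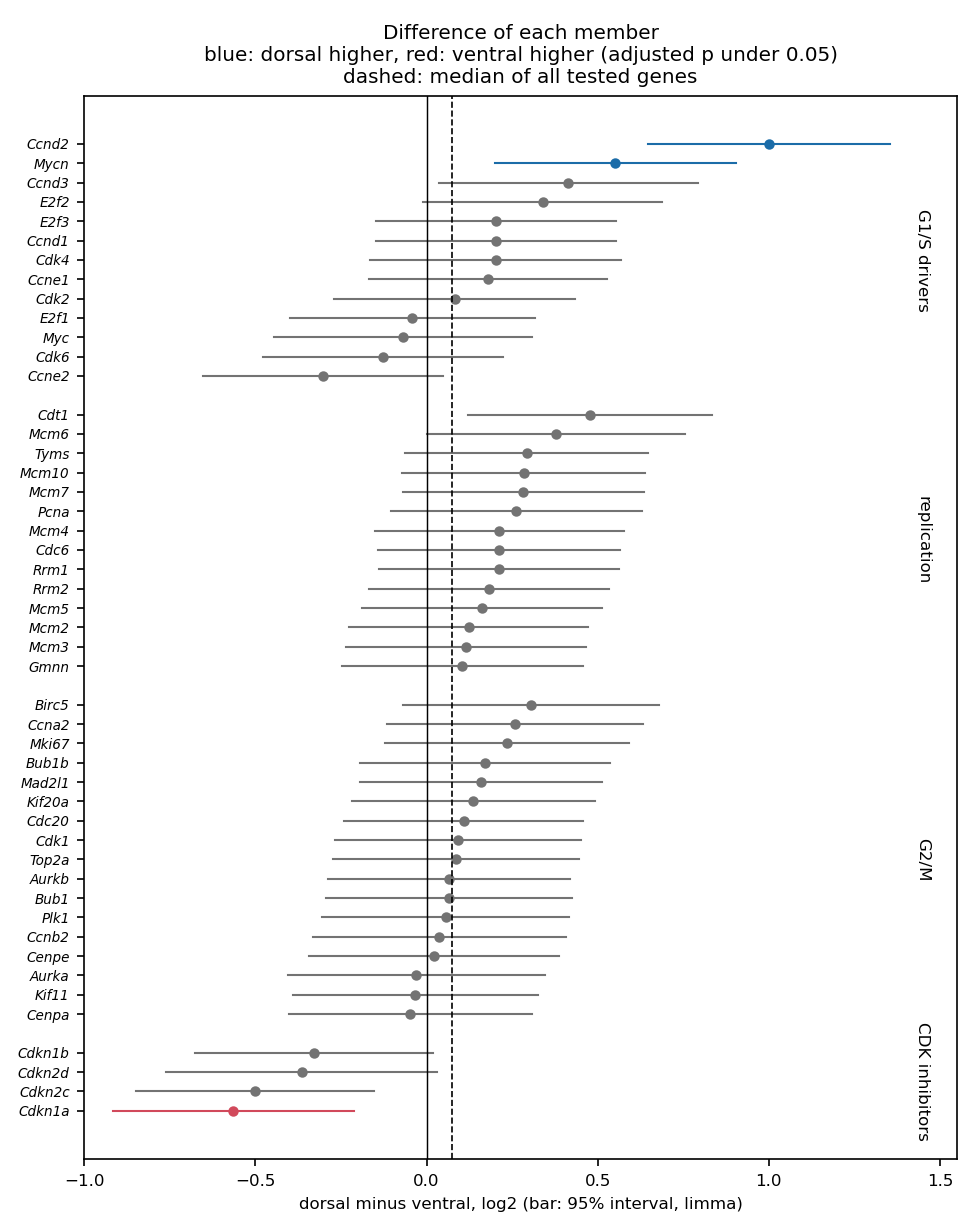
Difference between the parts (dorsal minus ventral, log2, on the horizontal axis) of every measured gene, ordered within its class, with the 95% interval of the limma fit. The dashed line at 0.07 is the median of all 13139 tested genes. The 14 replication genes lie to its right, though 3 of them turned negative with cyclic loess, and the 4 inhibitors lie to its left.

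*Ccnd2*, which encodes cyclin D2, had the largest difference of the 48 genes. It read 13.01 and 13.02 dorsally and 12.11 and 11.92 ventrally. Both dorsal arrays lay above both ventral arrays, by 0.90 for the arrays numbered 1 and by 1.10 for the others. The log2 difference was 1.0, or 2.0-fold (SE 0.17 for 2 against 2 arrays, limma adjusted p = 0.000227), and it was called under all 14 alternatives that were run, at 0.88 to 1.10. All 7 *Ccnd2* probe sets were higher dorsally, by 0.79 to 1.11. Tested singly, 5 of these 7 passed at an adjusted p under 0.05, where 5.84% of all 23336 tested probe sets did.

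The other D cyclins had smaller positive differences. *Ccnd3* was at 9.96 and 10.0 dorsally and at 9.80 and 9.33 ventrally, a difference of 0.41 (SE 0.18, limma adjusted p = 0.211). Its difference was 0.16 for the arrays numbered 1 and 0.67 for those numbered 2, and a second probe set of *Ccnd3* differed by 0.02. *Ccnd1* was at 11.13 and 11.17 dorsally and at 11.02 and 10.88 ventrally, a difference of 0.20 (adjusted p = 0.564 from limma), and its 3 probe sets gave 0.20 to 0.31. The kinases that D cyclins activate, *Cdk4* and *Cdk6*, differed by 0.20 and -0.13 (adjusted p = 0.586 and 0.730 from limma), and their arrays overlapped between the parts.

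*Mycn*, which encodes the growth-promoting transcription factor N-MYC, read 12.36 and 12.35 dorsally and 11.90 and 11.71 ventrally. The parts did not overlap, and the difference was 0.55, or 1.47-fold (SE 0.17, limma adjusted p = 0.0446). This call was close to the threshold. It was lost without either dorsal array (0.55 without dorsal replicate 1 and 0.56 without dorsal replicate 2), with no filter, with array medians set equal and with a gene's probe sets averaged (0.15). Across the alternatives its limma adjusted p lay between 0.00206 and 0.737. The other *Mycn* probe sets, at much lower values, gave 0.31 and -0.41. Its relative *Myc* was at 7.48 and 7.39 dorsally and at 7.73 and 7.27 ventrally, a difference of -0.07 with a 95% interval from -0.45 to 0.31.

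Among the remaining G1/S drivers none passed the test. The E cyclins, partners of CDK2 at the start of replication, had opposite signs, with *Ccne2* at 8.79 and 8.71 dorsally and 8.98 and 9.13 ventrally, a difference of -0.30 (adjusted p = 0.351 from limma). *Ccne1* differed by 0.18 on its brighter probe set, which can match other transcripts, and by 0.50 on the other one. *Cdk2* differed by 0.08. Of the activating E2F factors, *E2f2* differed by 0.34 and *E2f3* by 0.20 with no overlap between the parts, and *E2f1* by -0.04, with 0.40 and 0.19 on its other probe sets. Over the 13 G1/S drivers the median difference was 0.20, where that of all tested genes was 0.07. Other settings moved the class median. It was 0.08 with quantile normalization once more and 0.07 with cyclic loess, where that of all tested genes was -0.02 and -0.03. Without probe sets that may match several transcripts it was 0.34, where that of all tested genes was 0.07.

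All 14 replication genes had positive differences, from 0.10 to 0.48, but none passed the test. Of all tested genes 61.5% had positive differences, and of the fifth with the highest means 78.6% did. The sign of the smallest differences of the class depended on the scaling. With quantile normalization once more 13 of the 14 genes were positive (not *Gmnn*), and with cyclic loess 11 were (not *Gmnn*, *Mcm2* and *Mcm3*). Their median was 0.21, against 0.11 with quantile normalization once more and 0.09 with cyclic loess, 0.34 without ventral replicate 1 and 0.13 without ventral replicate 2. For 13 of the 14 both dorsal arrays lay above both ventral arrays, where 33.3% of all tested genes did so and 47.1% of those in the fifth with the highest means, to which 13 of these 14 genes belong. The largest difference was that of *Cdt1*, the origin licensing factor, at 12.41 and 12.41 dorsally and 12.05 and 11.81 ventrally, which gave 0.48 (SE 0.17, limma adjusted p = 0.0999). Its second tested probe set gave 0.58. *Cdt1* passed under 3 alternatives, with a trend in eBayes, without probe sets that may match several transcripts and without ventral replicate 1 (0.60). *Gmnn*, which encodes the CDT1 inhibitor geminin, differed by 0.10, the smallest difference of the class, and its arrays overlapped.

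The 6 genes of the MCM2 to MCM7 helicase differed by 0.11 to 0.38, and for each the parts did not overlap, though *Mcm2* and *Mcm3* turned slightly negative with cyclic loess. *Mcm6* was at 12.54 and 12.45 dorsally and at 12.34 and 11.89 ventrally, a difference of 0.38 (SE 0.18, limma adjusted p = 0.264). Without ventral replicate 1 it was 0.60, and without ventral replicate 2 it was 0.15. *Mcm7* followed with 0.28, *Mcm4* with 0.21, *Mcm5* with 0.16, *Mcm2* with 0.12 and *Mcm3* with 0.11. The other tested probe set gave -0.005 for *Mcm4*, 0.15 for *Mcm6* and 0.28 for *Mcm2*. The others of *Mcm5* gave 0.31 and 0.17, and those of *Mcm7* gave 0.16 to 0.38. With a gene's probe sets averaged, *Mcm6* differed by 0.16. Of 5 *Mcm3* probe sets 2 had negative differences, -0.23 and -0.06. The one at -0.23 was dim, at 4.64 and 4.73 dorsally and 4.94 and 4.89 ventrally. It passed the filter through the ventral arrays only, as the 40th percentile was 4.73 on both dorsal arrays. *Mcm10*, which joins the active helicase, differed by 0.28, and by -0.08 on the probe set that stood for it once those that may match several transcripts were left out. The origin factor gene *Cdc6* differed by 0.21. The gene of the sliding clamp, *Pcna*, was at 13.85 and 13.77 dorsally and at 13.73 and 13.37 ventrally, a difference of 0.26. The ribonucleotide reductase genes *Rrm1* and *Rrm2*, which supply deoxynucleotides, differed by 0.21 and 0.18.

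*Tyms*, the gene of thymidylate synthase, depended on the probe set. Its brightest one was dim for this class, at 5.87 and 5.83 dorsally and 5.67 and 5.45 ventrally, with a difference of 0.29 (adjusted p = 0.383 from limma). Another read 6.0 and 6.04 dorsally and 5.39 and 4.78 ventrally, and its difference of 0.93 passed when probe sets were tested singly (adjusted p = 0.0244 from limma). Without ventral replicate 2 that other probe set had the highest mean, and *Tyms* passed at 0.62. It also passed at 0.40 without ventral replicate 1. A further probe set that carries the symbols of *Tyms* and its pseudogene was left out.

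Of the 17 G2/M genes none passed the test, and the lowest adjusted p was 0.389 (limma). The differences ran from -0.05 to 0.31 with a median of 0.09, where the median of all tested genes was 0.07 and that of the fifth with the highest means was 0.13. The 95% intervals of the 17 genes lay between -0.40 and 0.68, and each held 0. For each gene, differences within its own interval were not excluded. Of the 17 genes 14 had positive differences (82.4%), where 61.5% of all tested genes and 78.6% of the fifth with the highest means did. With quantile normalization once more or cyclic loess 6 of the 17 were positive, and 7 were without ventral replicate 2. *Birc5*, the gene of survivin in the chromosomal passenger complex, was at 11.20 and 11.15 dorsally and at 11.09 and 10.66 ventrally, a difference of 0.31. *Ccna2*, the gene of cyclin A2, was at 11.27 and 11.22 dorsally and at 11.20 and 10.77 ventrally, a difference of 0.26. *Mki67*, the gene of the proliferation marker Ki-67, was at 12.88 and 12.89 dorsally and at 12.77 and 12.53 ventrally, a difference of 0.24. In each of these 3 genes ventral replicate 1 lay close to the dorsal arrays and ventral replicate 2 below them.

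Among the genes of mitotic entry, *Cdk1*, *Ccnb2* and the Polo and Aurora kinase genes had differences near 0, while *Ccna2* above and *Cdc25b* below had larger ones. *Cdk1*, the kinase of mitotic entry, differed by 0.09 and *Ccnb2*, one of its cyclins, by 0.04, with 95% intervals from -0.27 to 0.45 and from -0.33 to 0.41. The kinase genes *Plk1*, *Aurkb* and *Aurka* differed by 0.06, 0.07 and -0.03. Among spindle checkpoint genes *Bub1b* differed by 0.17, *Mad2l1* by 0.16 and *Bub1* by 0.06, and *Cdc20*, the activator of the complex that the checkpoint restrains, by 0.11. The other tested *Bub1b* probe sets gave 0.05 and, on a dim one, -0.38, and *Bub1b* was negative with a gene's probe sets averaged. The kinesin genes *Kif20a*, *Kif11* and *Cenpe* differed by 0.14, -0.03 and 0.02, and *Cenpa*, the centromeric histone, by -0.05. A dimmer *Cenpa* probe set gave 0.41. *Top2a*, the topoisomerase that untangles chromosomes, differed by 0.09 on its brightest probe set and by 0.60 on a dimmer one, and it passed only where the brightest one was left out as possibly matching several transcripts. A dim *Kif11* probe set read 8.65 on ventral replicate 1 and 6.67 to 6.90 on the other arrays.

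The 4 CDK inhibitors of the list had negative differences, where 5042 of all 13139 tested genes did. The differences of the 4 inhibitors stayed negative under each of the 14 alternatives. Outside the list, *Cdkn1c*, which encodes the inhibitor p57, differed by 0.38 and *Cdkn2b* by -0.82 (adjusted p = 0.232 and 0.00166 from limma). The *Cdkn2b* probe set was dim and read below the array median on both dorsal arrays. *Cdkn1a*, which encodes p21, was at 8.65 and 8.69 dorsally and at 9.32 and 9.16 ventrally. Both ventral arrays lay above both dorsal arrays, and the difference was -0.56, so it was 1.48-fold higher ventrally (SE 0.17, limma adjusted p = 0.0375). Its second probe set, at 7.23 and 7.5 dorsally and 8.21 and 8.28 ventrally, differed by -0.88 and passed when probe sets were tested singly (adjusted p = 0.0106 from limma). The call was lost without dorsal replicate 1 (-0.54), without dorsal replicate 2 (-0.59) and with no filter. Across the alternatives its limma adjusted p lay between 0.00901 and 0.747.

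*Cdkn2c*, which encodes the INK4 protein p18, was at 5.92 and 5.94 dorsally and at 6.47 and 6.39 ventrally, a difference of -0.50 (SE 0.17, limma adjusted p = 0.0701). It passed under 6 of the 14 alternatives, among them the omission of ventral replicate 1 (-0.46) or ventral replicate 2 (-0.55). *Cdkn2d*, which encodes p19, was at 7.49 and 7.26 dorsally and at 8.02 and 7.47 ventrally, so the parts overlapped, and it differed by -0.37 (adjusted p = 0.315 from limma). Leaving out an array moved this to -0.09 (without ventral replicate 1), -0.64 (without ventral replicate 2) or -0.25 (without dorsal replicate 2). *Cdkn1b*, which encodes p27, was at 7.05 and 7.05 dorsally and at 7.43 and 7.33 ventrally, a difference of -0.33 (adjusted p = 0.300 from limma). For 3 of the 4 inhibitors both ventral arrays lay above both dorsal arrays, where 17.6% of all tested genes did so. The median of the class was -0.43.

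The ventral arrays differed from each other more than the dorsal ones did, by the median size of the gap in each class. Over the 48 genes the median size of the difference between replicates was 0.04 dorsally and 0.23 ventrally, and over all tested genes it was 0.08 and 0.26. Ventral replicate 1 exceeded ventral replicate 2 for 45 of the 48 genes, where it did so for 75.8% of all tested genes and for 91.5% of the fifth with the highest means, to which 34 of the 48 genes belong. For the G2/M genes the median of this gap was 0.29. The deposited upper quartile was 7.75 on ventral replicate 2 and 8.0 to 8.02 on the other arrays, and the poly-A control RNAs were higher on the arrays numbered 2, by 2.22 dorsally and 1.92 ventrally. The part of these values in the differences between the parts was not tested.

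Within the arrays numbered 1 the replication genes had a median difference of 0.13, with 13 of 14 positive. All tested genes had a median of -0.0001 there, with 49.8% positive, and the fifth with the highest means had 0.02, with 56.9% positive. The G2/M genes had -0.04, with 5 of 17 positive, and the G1/S drivers had 0.11. Within the arrays numbered 2 the medians were 0.34 for replication, 0.21 for G2/M and 0.27 for the G1/S drivers. All tested genes had 0.18 there, with 68% positive, and the fifth with the highest means had 0.23, with 86.5% positive. The inhibitors had -0.54 within number 1 and -0.36 within number 2, with all 4 negative in both. The median of the G2/M genes thus changed sign with the array number, and the medians of the other 3 classes did not. Genes of a class share their arrays, so these medians carry no test.

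**Figure D3:**
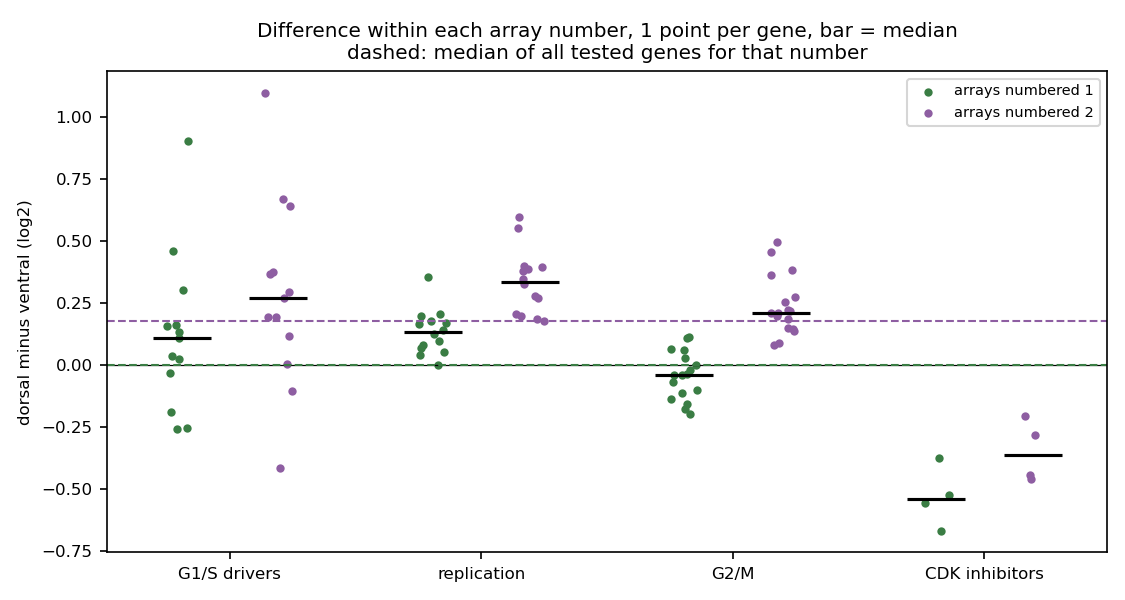
Dorsal minus ventral difference (log2, vertical axis) of each gene within the arrays numbered 1 (green) and numbered 2 (purple), by class, with a bar at the median of the class. Dashed lines mark the medians of all tested genes, -0.0001 for number 1 and 0.18 for number 2. The G2/M medians lie near those lines, the replication medians above them and the inhibitor medians below.

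Set against the median of all tested genes, the replication class lay 0.14 higher, the G1/S drivers 0.13 higher, the G2/M genes 0.01 higher and the inhibitors 0.51 lower. Against the median of the fifth with the highest means, to which 13 of 14 replication and 15 of 17 G2/M genes belong, the replication class lay 0.08 higher and the G2/M class differed by -0.04. Over the 14 alternatives the replication class stayed 0.10 to 0.20 above the median of all tested genes, and the G1/S drivers 0.09 to 0.27. The inhibitors stayed 0.45 to 0.59 below it, and the G2/M genes ranged from -0.06 to 0.07 around it. The comparison with the fifth was not run under the alternatives.

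**Figure D4:**
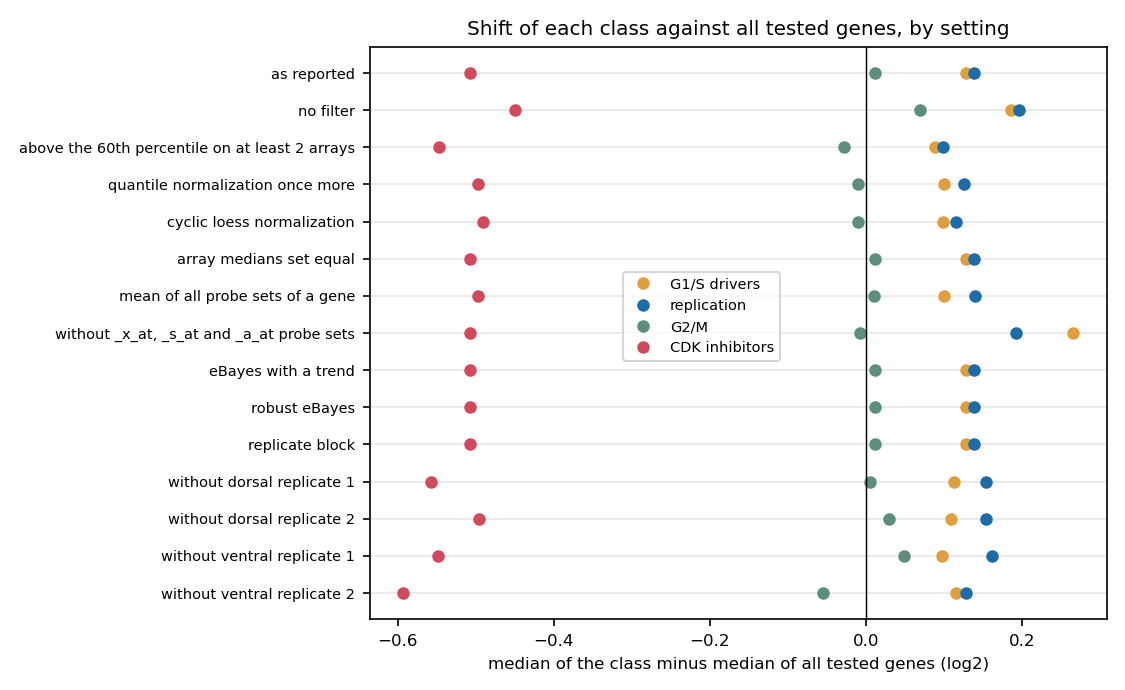
Median difference of each class minus the median of all tested genes (log2, horizontal axis) as reported and under each of the 14 alternatives (vertical axis). The inhibitors lie at -0.59 to -0.45, the G2/M genes on both sides of 0, and the replication genes and G1/S drivers at 0.09 to 0.27.

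The choice of probe set mattered for single genes. The 48 genes have 111 probe sets, of which 100 passed the filter, and 6 of these were called dorsally and 1 ventrally, in *Ccnd2*, *Tyms* and *Cdkn1a*, near the 5.84% of all tested probe sets called in either direction. Of the 6 dorsal calls 5 were *Ccnd2*. Of 31 genes with more than 1 tested probe set, 23 had differences of one sign and 8 had both signs. The probe set that stands for *Mycn* had an adjusted p of 0.0931 when probe sets were tested singly, and that of *Cdkn1a* had 0.0815 (limma).

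**Figure D5:**
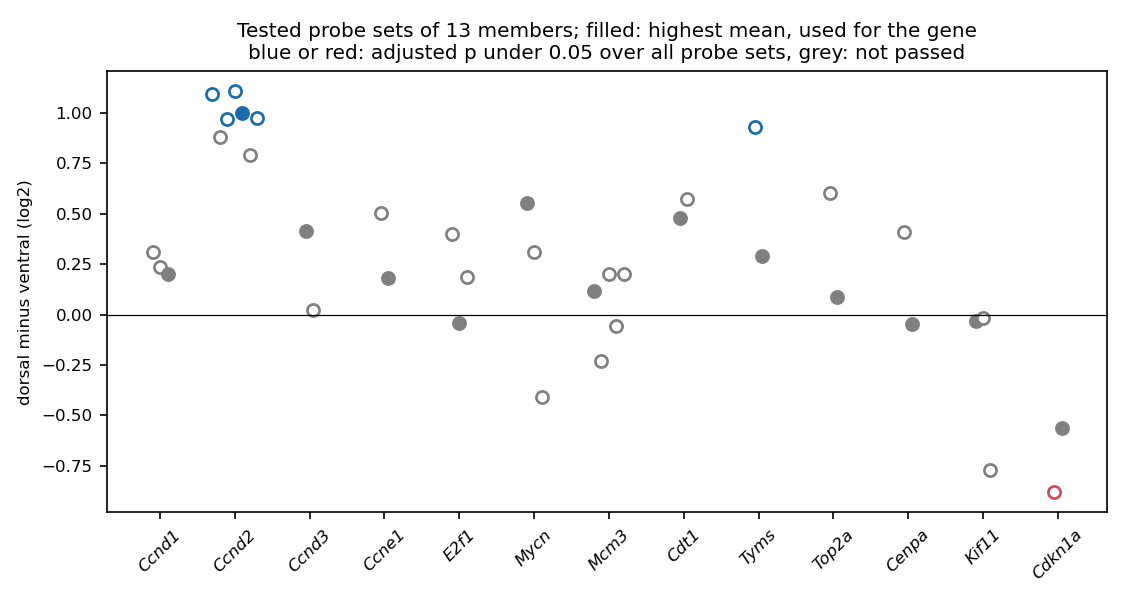
Dorsal minus ventral difference (log2, vertical axis) of each tested probe set of 13 genes, filled where it stands for the gene and coloured where it passed at an adjusted p under 0.05 over all probe sets. The 7 *Ccnd2* probe sets lie between 0.79 and 1.11, and those of *Mycn* lie between -0.41 and 0.55.

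Other genes of the same pathways, 106 in all, were read from the same fit, and 101 of them were tested. Of these, 3 were higher dorsally and 2 ventrally, below the background shares given above. Of 38 genes of replication origins and forks, 37 had positive differences, with a median of 0.29. Of all tested genes 61.5% were positive, and of the fifth with the highest means 78.6% were. With quantile normalization once more or cyclic loess 33 of the 38 were positive, and 31 were without ventral replicate 2. Within the arrays numbered 1 the median was 0.13 with 32 positive. *Chaf1b*, a subunit of the chromatin assembly factor behind the fork, was higher dorsally at 9.78 and 9.90 against 9.37 and 9.01, a difference of 0.65 (adjusted p = 0.0199 from limma). *Pold1*, the catalytic subunit of DNA polymerase delta, was higher at 10.91 and 11.11 against 10.44 and 10.35, a difference of 0.62 (adjusted p = 0.0228 from limma). Neither passed without dorsal replicate 1 or dorsal replicate 2, where none of these genes was called dorsally.

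Of 35 further mitotic genes the median was 0.10, and *Cdc25b*, the phosphatase that activates CDK1, was the one called, at 8.62 and 8.67 dorsally and 8.14 and 7.72 ventrally (difference 0.71, adjusted p = 0.0114 from limma). Of 16 genes of RB, E2F and G1/S control none passed. *Rb1* itself, at 7.72 and 7.68 dorsally and 8.26 and 8.17 ventrally, differed by -0.51 (adjusted p = 0.0622 from limma). Of 12 arrest genes 2 were higher ventrally. *Cdkn2b*, another INK4 inhibitor, was at 4.82 and 4.83 dorsally and at 5.60 and 5.71 ventrally (difference -0.82, adjusted p = 0.00166), and *Gadd45g*, a growth arrest gene, was at 6.73 and 6.80 dorsally and at 7.70 and 7.37 ventrally (difference -0.77, adjusted p = 0.00467, both from limma). On the dorsal arrays *Cdkn2b* lay just above the 40th percentile of 4.73. Of the other arrest genes 4 had positive differences and none of these passed. The largest were *Gadd45a* at 0.56 (adjusted p = 0.103 from limma) and *Cdkn1c*, the CDK inhibitor gene, at 0.38 (adjusted p = 0.232 from limma). Without ventral replicate 1, 52 of 100 tested genes were called dorsally and 7 ventrally, where 35.1% and 12.3% of all tested genes were, and without either dorsal array the counts were 0 and 0.

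Markers of other cell types moved between the same parts. Of 10 tested heart muscle genes 9 were higher ventrally, and the log2 of their summed level was 11.26 to 11.29 dorsally and 14.05 to 14.43 ventrally, with *Myl2* and *Nppa* below the 40th percentile on all arrays and *Myh6* below it on the dorsal ones. Of 6 neural crest genes 5 were higher dorsally and 1 ventrally (summed level 11.18 to 11.24 dorsally and 10.07 to 10.09 ventrally), and *Foxd3* was below the 40th percentile on the ventral arrays. Of 8 neuronal genes 6 were higher dorsally, but their summed level was 11.37 to 11.46 dorsally and 12.07 to 12.29 ventrally, where *Isl1* was higher. Of 6 red blood cell genes 3 were higher dorsally (summed level 15.75 dorsally and 15.15 to 15.44 ventrally). Foregut epithelium had 2 of 8 genes higher ventrally and 1 dorsally (12.58 to 12.65 and 13.74 to 14.04), foregut mesenchyme had 4 of 9 higher ventrally (13.38 to 13.40 and 13.44 to 13.74), and none of 8 endothelial genes was called (11.35 to 11.37 and 11.30 to 11.60). The part of these cell types in the values of *Ccnd2*, *Mycn* and the inhibitors was not tested.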

How the data were processed

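Total RNA (100 ng per array) of dorsal and ventral parts was labelled in 2 cycles and hybridised to Affymetrix mouse arrays, 2 per part. The authors deposited 1 value per probe set, which the submitters' processing notes name as RMA and which are read here as log2 values from their range of 2.36 to 15.02. The sources used here name no software for this step. With 4 arrays, their number limits the precision. Of 45101 probe sets, 34958 had 1 symbol in GEO's platform annotation, 932 had several and 9211 were not named here.

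Each gene was represented by its probe set with the highest mean and tested when above the array's 40th percentile on 2 arrays. Dorsal minus ventral was fitted with limma 3.58.1 in R 4.3.3 (lmFit, eBayes, two-sided, Benjamini-Hochberg over 13139 genes), without the replicate number. The eBayes step draws each gene's variance toward a value shared by all tested genes. An SE given here is therefore not the spread of that gene's own arrays alone. The SEs of the 48 genes lay between 0.167 and 0.191. The method was tested on simulated data, with noise that was independent and, for each gene, of equal spread on all arrays. Those data lack the gap between the ventral arrays, so the simulation cannot speak to it. Permuting 2 against 2 arrays exactly, two-sided, gives no p under 0.333. The 14 alternatives concerned the filter, normalization, probe sets, the variance model, the replicate number and the omission of each array.

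Genes given with the value of every array were those that passed and, in each class, the 3 largest differences. Other genes were named after their values were seen. Values on every array of further genes are given where the text turns on them. The members, classes and lists were chosen with earlier results of these data known, and the sequence motifs after the values were seen. Promoter sequences are from RefSeq (GRCm38.p6).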

Additional observations from a re-analysis of the deposited data

How the results depend on the processing

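*Ccnd2* passed under all 14 alternatives, *Cdkn1a* under 11 and *Mycn* under 9, and none of the 12 genes named by the rule changed sign. Members called dorsally numbered 1 with no filter, with array medians set equal or with probe sets averaged per gene, and 4 without probe sets that may match several transcripts, against 2. Members called ventrally numbered 0 with no filter, 2 with a filter at the 60th percentile, with quantile normalization once more and with the replicate block, and 3 with cyclic loess, against 1. Leaving out 1 array gave 1 to 21 members dorsally and 0 to 4 ventrally, and 247 to 4544 genes dorsally and 276 to 1593 ventrally over all tested genes, against 629 and 538. The highest of these counts came without ventral replicate 1, where 43.8% of the members and 35.1% of all tested genes were called dorsally. With 1 array left out, the spread comes from the part with both arrays, and the lone array is assumed to vary likewise. Of the other cell cycle genes, 4 with quantile normalization once more and 5 with cyclic loess were called ventrally, and 1 in each direction without probe sets that may match several transcripts, against 3 dorsally and 2 ventrally. Leaving out 1 array gave 0 to 52 dorsally and 0 to 7 ventrally. The median of the G1/S drivers (0.20) was 0.0842 with quantile normalization, 0.0727 with cyclic loess, 0.34 without probe sets that may match several transcripts, and 0.12 to 0.28 with 1 array left out. The median of all tested genes was -0.02 with quantile normalization, -0.03 with cyclic loess and 0.07 as reported, and the split of calls was then 479 and 635 or 498 and 705. The cause of these changes was not tested.

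The arrays share replicate numbers, but the labels tie the numbers to no litter or batch, and 2 pairs are too few to decide. Differences between replicates correlated between the parts at 0.14 over 13139 genes. With the replicate block 790 genes were called dorsally and 678 ventrally, and *Cdkn2c* (-0.50, adjusted p = 0.0449 from limma) was added to the 3 members called. It changed the call of no other member.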
